A study of Mus musculus with 6 samples.

Results

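The genes described here mostly encode enzymes that write or erase histone methyl marks or erase acetyl marks, Polycomb subunits and heterochromatin (HP1) proteins. They were chosen by name, as protein-coding genes whose symbol begins with Kdm, Kmt, Hdac, Ezh, Cbx, Pcgf or Setd followed by a digit, plus Suz12, Eed, Jarid2, Rnf2 and Ring1. This gave 65 genes of 55471 identifiers counted, and 63 of them had enough reads to be tested. Kdm4d and Kdm5d were not tested, with 14 and 5 reads in all induced libraries together and 14 and 18 in all knockout libraries.

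The RNA came from mouse epiblast stem cells, pluripotent cells that resemble the epiblast before gastrulation, after 2 days of serum differentiation as embryoid bodies. The stem cells were grown on irradiated feeder fibroblasts with bFGF and activin A. The activin A dose was 20 ng/mL and the bFGF dose 10 ng/mL for every library, and each had a microwell step of 24 h. One group of 3 libraries came from a line with inducible Mixl1, a homeobox factor of the primitive streak, given doxycycline at 1 µg/mL for the last 24 h. The other group of 3 came from cells labelled Mixl1 KO. The labels do not say whether the knockout cells received doxycycline, whether both lines share a parent, or whether replicates were separate cultures, so line, drug and Mixl1 cannot be told apart. Nor do they name the altered part of Mixl1 or the number of clones, and the p-values cover the spread among these libraries, which may be technical. Mixl1 itself stood at 432.5 ± 7.54 CPM in induced libraries and 39.8 ± 2.96 CPM in knockout libraries (SD, n = 3 each; CPM, reads per 1000000 in a library scaled by TMM).

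Polycomb repressive complex 2 (PRC2) methylates lysine 27 of histone H3, and complex 1 (PRC1) ubiquitinates histone H2A and, in its canonical form, binds that methyl mark through a CBX protein. Trithorax-type KMT2 and SETD1 enzymes methylate lysine 4 of H3, KDM enzymes remove methyl groups and HDAC enzymes remove acetyl groups. In pluripotent cells Polycomb complexes sit at the promoters of many developmental regulators.

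The libraries held 17490426 to 21026423 reads on genes. At an adjusted p of 0.05 (edgeR quasi-likelihood test), 62.6% of the 15091 tested genes were called, 31.0% as higher and 31.6% as lower in induced libraries. Markers of other cell types moved with the groups. All 6 macrophage markers were lower, with a summed level of 42.8 to 52.8 CPM in induced libraries and 294.4 to 430.5 CPM in knockout libraries, most of it from Lyz2 (34.5 CPM in induced and 312.8 CPM in knockout libraries). Fibroblast markers, which the feeder layer could carry, summed to 416.9 to 576.6 CPM in induced and 590.4 to 755.1 CPM in knockout libraries, with 3 of 8 higher and 4 lower. Endothelial markers summed to 38.0 to 40.9 CPM in induced and 4.80 to 5.18 CPM in knockout libraries, and Kdr carried this sum (37.1 CPM in induced and 2.72 CPM in knockout libraries). Pecam1 was also higher, Cdh5 was lower (0.779 CPM in induced and 1.51 CPM in knockout libraries), and Tie1 was not tested. Neuronal markers summed to 223.2 to 229.4 CPM in induced and 218.5 to 259.5 CPM in knockout libraries, but all 5 were called, 2 higher and 3 lower. Tubb3 had 61.7 CPM in induced and 18.0 CPM in knockout libraries, and Dcx 2.59 CPM in induced and 27.9 CPM in knockout libraries. Epiblast markers were present in every library, at 1193 to 1220 CPM in induced and 1728 to 1845 CPM in knockout libraries, with 4 of 6 lower and 2 higher. Pou5f1 carried that sum (801.5 CPM in induced and 1300 CPM in knockout libraries), while Otx2 (38.2 CPM in induced and 15.2 CPM in knockout libraries) and Fgf5 (59.0 CPM in induced and 19.6 CPM in knockout libraries) were the higher ones. None of the markers was at 0 over a group, and their part in the results below was not tested. In bulk RNA, fewer cells of a type and less RNA per cell cannot be told apart.

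Most of these genes differed little between the groups. Of 63 tested, 20 were higher and 12 lower in induced libraries, and 31 did not pass, so 50.8% were called against the 62.6% of all tested genes. The share called was not above the background. A change of at least 1.5-fold past the threshold was found for 4 higher and 2 lower genes, where 11.6% and 15.9% of all tested genes met that rule. Their median absolute log2 fold change was 0.15, against 0.32 over all tested genes, and their median signed value was 0.01, against 0.00. For 38 of the 63, every library of one group lay outside the range of the other, as it did for 67.1% of all tested genes. In the authors' deposited table, where 43.2% of 20194 genes passed, 20 of the 63 were higher and 11 lower, and 31 calls had the same direction as here. These are abundant transcripts, with a median of 85.1 CPM, against 22.6 CPM over all tested genes. Their median standard error was 0.055, against 0.084, so small differences were called here. The smallest called was that of Kdm4a, at -0.13 on the log2 scale.

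**Figure D1:**
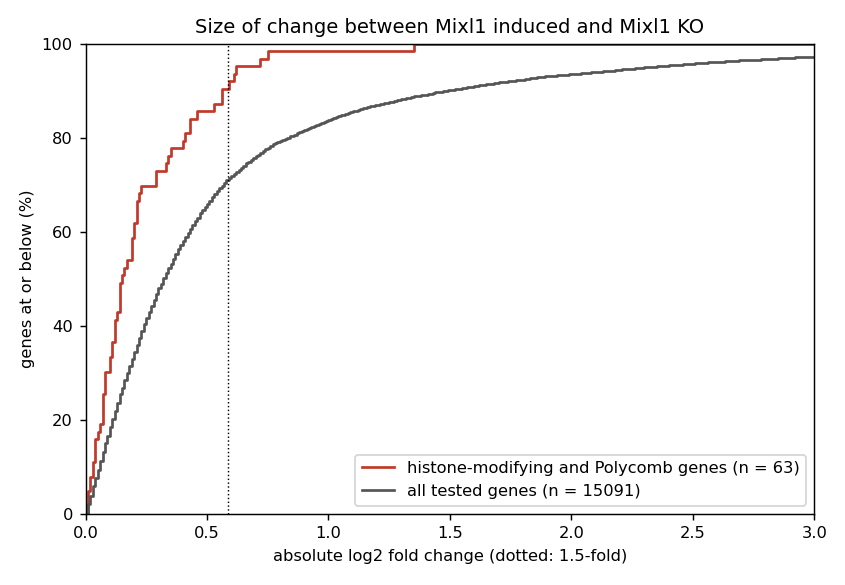
Cumulative share of genes (vertical axis, %) with an absolute log2 fold change between induced and knockout libraries at or below the value on the horizontal axis, for the 63 histone-modifying and Polycomb genes and for all 15091 tested genes. The curve of the 63 genes lies above and to the left, with medians of 0.15 and 0.32.

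**Figure D2:**
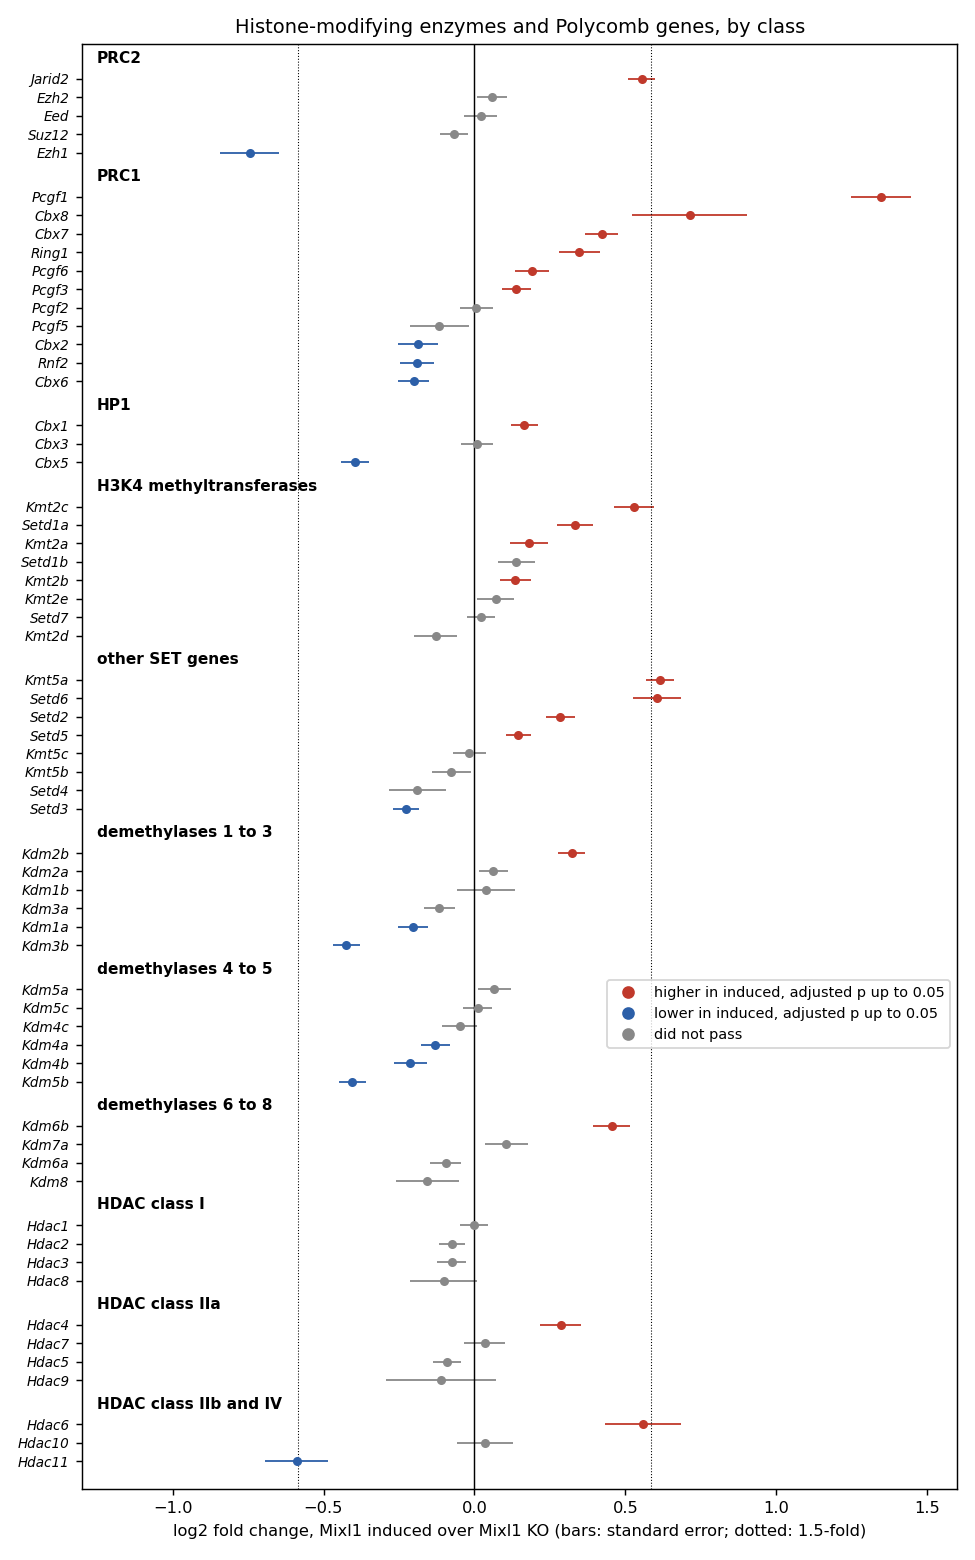
Log2 fold change of the tested genes reported here, induced over knockout (horizontal axis, bars show the standard error of the fit), ordered within enzyme classes. Pcgf1 stands farthest to the right at 1.35 and Ezh1 farthest to the left at -0.74, and the 4 class I HDAC genes lie close to 0.

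In PRC2 the calls fell on the minor catalytic subunit and a cofactor, not on the core. Of 5 genes, Jarid2 was higher, Ezh1 was lower, and Ezh2, Eed and Suz12 did not pass. That is 40.0% called, against 62.6% of all tested genes. Ezh2, the catalytic subunit that predominates in dividing cells, stood at 137.0, 139.0 and 146.6 CPM in induced libraries, against 138.0, 128.1 and 139.5 CPM in knockout libraries. The 2 groups overlap, and the 95% interval of the fold ran from 0.971 to 1.12 (log2 fold change 0.06, SE 0.05; edgeR quasi-likelihood test, adjusted p = 0.306). Eed, which binds the methyl mark, had 68.0, 75.0 and 76.1 CPM in induced libraries and 71.2, 74.0 and 70.6 CPM in knockout libraries. Suz12, the scaffold, had 134.2, 129.6 and 130.3 CPM in induced libraries and 142.4, 131.1 and 139.7 CPM in knockout libraries. Both overlap between the groups, with 95% intervals of the fold of 0.937 to 1.10 for Eed and 0.891 to 1.02 for Suz12.

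Ezh1, the second catalytic subunit (ENSMUSG00000006920.14; chromosome 11, 101191115 to 101226463, mm10, minus strand), had 12.6, 11.8 and 10.9 CPM in induced libraries, against 18.2, 18.8 and 22.2 CPM in knockout libraries. All induced libraries lay below all knockout libraries. It averaged 11.8 ± 0.861 CPM in induced and 19.8 ± 2.11 CPM in knockout libraries (SD, n = 3 each), a log2 fold change of -0.74 (SE 0.10; edgeR quasi-likelihood test, adjusted p = 8.22e-07). Jarid2, a cofactor that takes part in recruiting PRC2, had 206.1, 209.0 and 202.9 CPM in induced libraries and 145.4, 138.7 and 136.8 CPM in knockout libraries. The groups were well apart, with a 1.47-fold difference (log2 fold change 0.55, SE 0.04; edgeR, adjusted p = 4.43e-10).

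The share of Ezh1 in the summed level per kb of Ezh1 and Ezh2 was 7.62%, 7.10% and 6.24% in induced libraries, against 10.6%, 11.7% and 12.5% in knockout libraries. Levels per kb divide CPM by the exonic length of the gene. The difference of means was -4.60 percentage points, and the exact two-sided permutation test gave p = 0.1, the smallest that 3 against 3 allows. The sum of both was 22.7 ± 0.643 CPM per kb in induced and 22.9 ± 1.10 CPM per kb in knockout libraries (SD, n = 3 each), so the pool as a whole differed by less than its spread. In all, 17 such shares were tested over 7 sets of paralogues, and their Benjamini-Hochberg values ranged upward from 0.113.

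The promoters of the Ezh pair and of Suz12 are shown because one member of the pair was lower while the other and the scaffold did not pass. The windows are from RefSeq (GRCm38.p6) and run from 250 bases before the start site to 50 after it. Capitals mark the CCAAT box (CCAAT, either strand) and E2F-type letters (TTTGGCGC or TTTCCCGC, either strand), which do not overlap each other here. Ezh1 lies at chr11:101226414-101226713 (minus strand), Ezh2 at chr6:47594981-47595280 (minus strand) and Suz12 at chr11:79992856-79993155 (plus strand).
Ezh1: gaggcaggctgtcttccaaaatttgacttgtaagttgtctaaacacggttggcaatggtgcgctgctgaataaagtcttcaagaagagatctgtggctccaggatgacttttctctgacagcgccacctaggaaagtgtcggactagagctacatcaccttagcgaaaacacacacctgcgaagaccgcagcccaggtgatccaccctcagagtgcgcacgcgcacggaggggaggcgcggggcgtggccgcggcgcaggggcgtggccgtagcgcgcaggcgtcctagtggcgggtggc
Ezh2: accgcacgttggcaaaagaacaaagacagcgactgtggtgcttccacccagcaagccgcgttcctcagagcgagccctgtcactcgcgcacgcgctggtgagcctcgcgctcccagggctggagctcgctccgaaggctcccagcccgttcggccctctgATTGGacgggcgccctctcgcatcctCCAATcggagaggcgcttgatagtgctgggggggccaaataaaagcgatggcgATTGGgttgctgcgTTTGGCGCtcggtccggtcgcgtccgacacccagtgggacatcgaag
Suz12: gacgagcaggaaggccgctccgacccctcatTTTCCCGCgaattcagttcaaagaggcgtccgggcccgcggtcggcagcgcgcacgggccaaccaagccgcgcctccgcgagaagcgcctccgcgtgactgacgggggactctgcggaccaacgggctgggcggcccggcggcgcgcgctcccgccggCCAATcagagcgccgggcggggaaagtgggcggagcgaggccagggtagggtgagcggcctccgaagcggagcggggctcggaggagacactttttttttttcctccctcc
Ezh2 has 3 CCAAT matches and 1 E2F-type match, Suz12 has 1 of each, and the Ezh1 window has neither. The windows hold 31, 41 and 23 CG dinucleotides for Ezh2, Suz12 and Ezh1. CCAAT occurs in 41.4% of 70 windows of 51 of these genes with an entry and in 37.4% of all 32817 windows, TTTGGCGC in 2.86% and 0.515%, and TTTCCCGC in 2.86% and 1.07%. A match of letters is a description and not a binding site.

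PRC1 held the largest change of the 63 genes, that of Pcgf1. Of 12 genes, all tested, 6 were higher and 3 lower, or 75.0% called against 62.6% of all tested genes. The calls of Pcgf3 and Cbx2 depended on single libraries. The higher ones were Pcgf1, Cbx8, Cbx7, Ring1, Pcgf6 and Pcgf3, the lower ones Cbx6, Rnf2 and Cbx2, and Pcgf5 and Pcgf2 were among those that did not pass. Pcgf proteins pair with the ubiquitin ligases RING1 and RNF2, and the Pcgf present defines the subcomplex.

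Pcgf1, of the variant complex that also contains BCOR and the CpG-island reader KDM2B, lies on chromosome 6 from 83077869 to 83080855 (ENSMUSG00000069678.10, mm10, plus strand). It had 21.4, 23.9 and 20.5 CPM in induced libraries, against 8.24, 9.70 and 7.95 CPM in knockout libraries. Every induced library was above every knockout library, and the means were 21.9 ± 1.79 CPM in induced and 8.63 ± 0.937 CPM in knockout libraries (SD, n = 3 each). This 2.54-fold difference (log2 fold change 1.35, SE 0.10; edgeR quasi-likelihood test, adjusted p = 1.13e-10) was the only change beyond 2-fold among the 63 genes. Changes of at least 2-fold were estimated for 16.2% of all tested genes. Pcgf6, of the complex with MGA and E2F6, had 51.9, 53.9 and 50.8 CPM in induced and 45.5, 46.7 and 45.2 CPM in knockout libraries, a smaller difference without overlap (log2 fold change 0.19). Pcgf3 was higher by 0.14 on the log2 scale (edgeR, adjusted p = 0.0172), a call lost without knockout replicate 1 (adjusted p = 0.0951), knockout replicate 2 (0.051) or induced replicate 1 (0.069). Pcgf2, of canonical PRC1, had the highest level of the family, 28.3 CPM per kb in induced and 28.1 in knockout libraries, with a 95% interval of the fold of 0.928 to 1.09. Pcgf5 had a log2 fold change of -0.12 (edgeR, adjusted p = 0.309).

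Pcgf1 held 20.9%, 22.2% and 20.5% of the summed Pcgf level per kb in induced libraries, against 9.70%, 10.6% and 9.55% in knockout libraries. The share of Pcgf2 was 45.0% ± 0.287 in induced and 53.6% ± 1.31 in knockout libraries (SD, n = 3 each; exact permutation test, p = 0.1 for each of these shares, the smallest possible). The sum itself was 62.7 ± 2.36 CPM per kb in induced and 52.5 ± 2.57 CPM per kb in knockout libraries, 1.2 times as high. Bmi1, the family member whose symbol falls outside the rule, is left out of this sum, and it stood at 26.8 ± 2.51 CPM in induced and 26.6 ± 2.90 CPM in knockout libraries. Without division by length the difference in the Pcgf1 share was 4.42 in place of 11.2 percentage points, and that in the Pcgf2 share was -3.68 in place of -8.56.

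Both catalytic ligases differed, in opposite directions. Rnf2, which provides most of the ligase activity in pluripotent cells, had 119.7, 115.7 and 118.3 CPM in induced libraries, against 137.7, 120.9 and 145.0 CPM in knockout libraries. The lowest knockout library lay just above the highest induced one (log2 fold change -0.19, SE 0.06; edgeR, adjusted p = 0.00565). Ring1 had 36.4, 38.3 and 36.3 CPM in induced libraries and 30.0, 30.4 and 26.8 CPM in knockout libraries, without overlap (log2 fold change 0.35, SE 0.07; edgeR, adjusted p = 0.000136). Its share of the pair per kb was 28.6% ± 0.973 in induced and 21.7% ± 2.61 in knockout libraries (SD, n = 3 each; exact permutation p = 0.1), while the sum of the pair was 40.0 ± 0.229 CPM per kb in induced and 41.6 ± 2.53 in knockout libraries. The median log2 fold change over chromosome 17, where Ring1 lies, was -0.13.

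Among the CBX readers of canonical PRC1, Cbx7 and Cbx8 were higher and Cbx2 and Cbx6 lower. Cbx7, the reader that predominates in mouse embryonic stem cells, had 99.2, 97.7 and 95.2 CPM in induced libraries, against 70.9, 78.7 and 68.6 CPM in knockout libraries. The groups did not overlap (log2 fold change 0.42, SE 0.05; edgeR quasi-likelihood test, adjusted p = 6.9e-07). Cbx8 (ENSMUSG00000025578.9; chromosome 11, 119036305 to 119040969, mm10, minus strand) was scarce, with 62, 64 and 73 reads in induced and 47, 36 and 41 reads in knockout libraries. Those reads are 2.99, 3.66 and 3.99 CPM in induced and 2.29, 1.98 and 2.16 CPM in knockout libraries, a 1.64-fold difference with the widest error of the 63 genes (log2 fold change 0.71, SE 0.19; edgeR, adjusted p = 0.00249). Cbx6 had 79.5, 81.5 and 79.7 CPM in induced and 88.0, 98.0 and 90.9 CPM in knockout libraries (log2 fold change -0.20). Cbx2 had 71.0, 79.6 and 83.2 CPM in induced and 83.5, 84.5 and 97.9 CPM in knockout libraries, and the 2 groups nearly touch. Its log2 fold change of -0.19 (edgeR, adjusted p = 0.0221) lost its call when knockout replicate 3 was left out (-0.11, adjusted p = 0.123) or induced replicate 1 (-0.12, 0.14).

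The share of Cbx7 in the summed level per kb of the CBX readers of PRC1 was 37.1%, 34.5% and 33.4% in induced libraries, against 26.8%, 28.2% and 24.1% in knockout libraries. Cbx2 held the largest share per kb in both groups, 42.6% ± 2.01 in induced and 48.9% ± 3.19 in knockout libraries (SD, n = 3 each; exact permutation p = 0.1 for both genes). That rank depends on the division by length. By mean CPM, Cbx7 led in induced libraries (97.4, against 77.9 for Cbx2) and Cbx6 in knockout libraries (92.3, against 88.6 for Cbx2). The sum over these readers was 41.2 to 44.0 CPM per kb in induced and 40.7 to 43.9 in knockout libraries, so the shares of these genes were apart while the totals overlapped. Cbx6 and Cbx7 lie on chromosome 15, where the median log2 fold change of 596 tested genes was -0.33. Relative to it Cbx6 stood at 0.13 and Cbx7 at 0.75.

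The promoters of the 2 readers that were higher are shown from the same source and with the same capitals, Cbx7 at chr15:79932597-79932896 and Cbx8 at chr11:119040864-119041163 (both minus strand).
Cbx7: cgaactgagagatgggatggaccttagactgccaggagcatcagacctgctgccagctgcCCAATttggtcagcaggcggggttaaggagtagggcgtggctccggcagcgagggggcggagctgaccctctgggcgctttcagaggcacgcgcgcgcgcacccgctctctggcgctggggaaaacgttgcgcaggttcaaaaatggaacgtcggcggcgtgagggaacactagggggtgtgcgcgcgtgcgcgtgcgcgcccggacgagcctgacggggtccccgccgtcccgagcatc
Cbx8: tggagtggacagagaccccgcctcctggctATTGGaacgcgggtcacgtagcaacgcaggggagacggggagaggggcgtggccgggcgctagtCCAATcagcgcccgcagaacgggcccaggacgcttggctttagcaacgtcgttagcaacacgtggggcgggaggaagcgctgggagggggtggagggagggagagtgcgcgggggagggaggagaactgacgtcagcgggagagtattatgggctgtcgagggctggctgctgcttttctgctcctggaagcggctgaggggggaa
Cbx7 has 1 and Cbx8 has 2 CCAAT matches, and neither has an E2F-type match. The homeodomain core TAAT (either strand) occurs in 1 place in Cbx8 and in none in Cbx7. It occurs in 27.1% of the 70 windows and in 58.0% of all windows. The paired-homeodomain palindrome occurs in 1 of the 70 windows, a window of Kdm4c (which did not pass), and in 0.485% of all windows. The member windows hold a median of 24 CG dinucleotides, against 7 over all windows. Pcgf1 is named without a window.

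**Figure D3:**
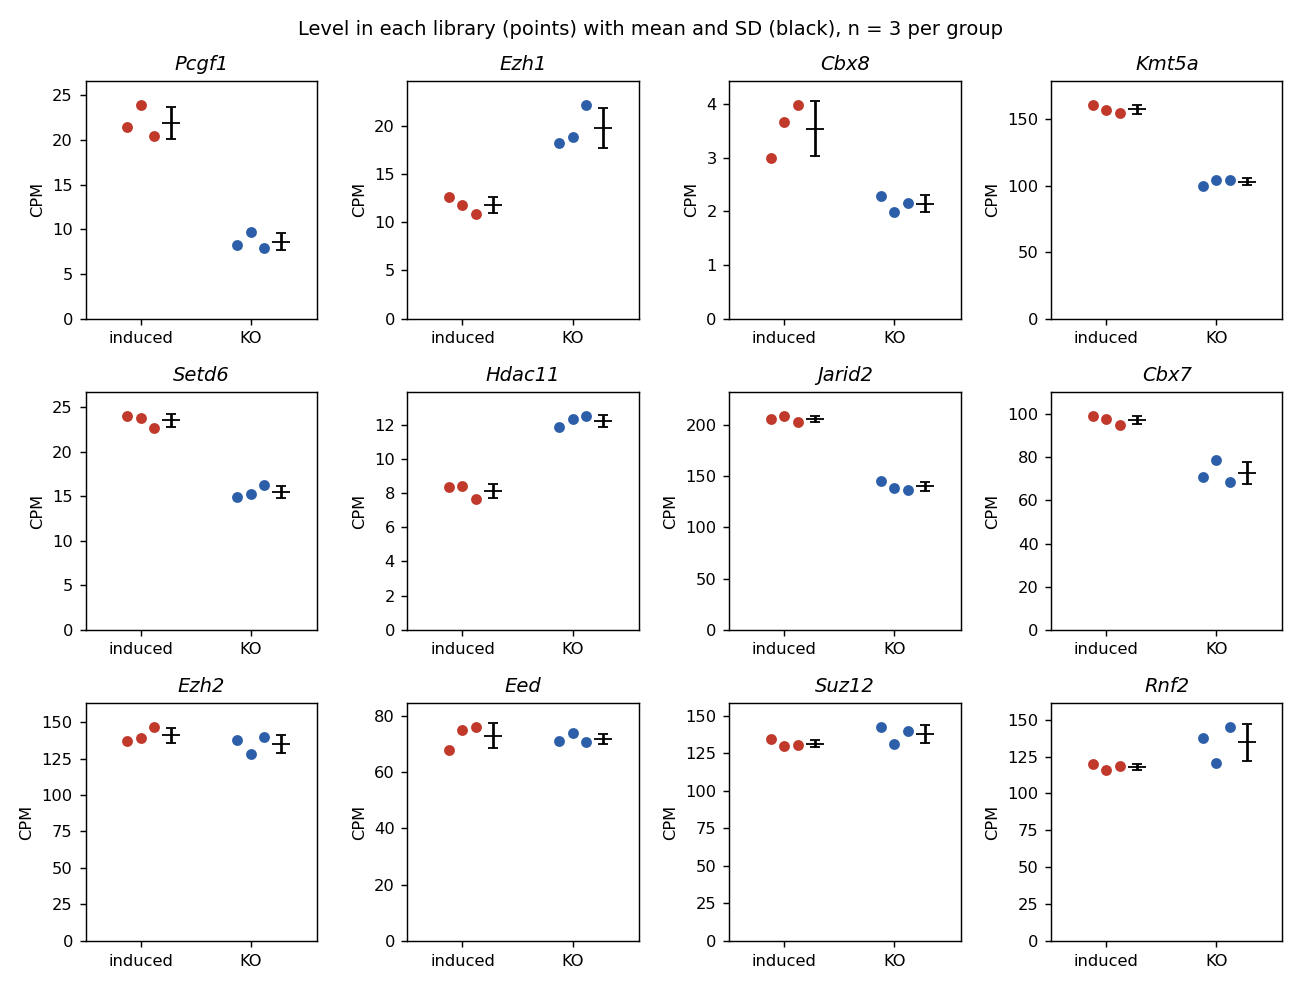
CPM in each library (points), with the mean and SD of each group in black (n = 3), for the 6 genes with a change of at least 1.5-fold, for Jarid2 and Cbx7, and for Ezh2, Eed, Suz12 and Rnf2. Groups are apart in the upper 2 rows and overlap or nearly touch in the bottom row.

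**Figure D4:**
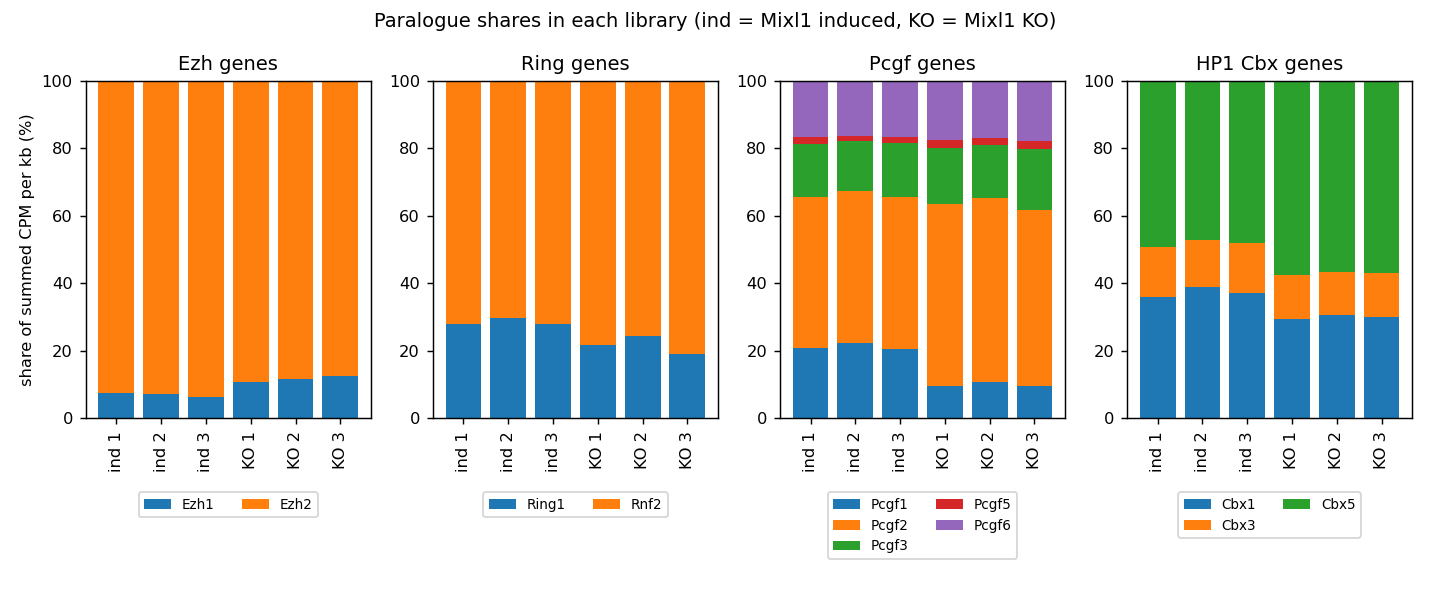
Share of each paralogue in the summed CPM per kb of its set (vertical axis, %; Ezh, Ring, Pcgf and HP1 sets) in every library, induced libraries on the left of each panel and knockout libraries on the right. Pcgf1 takes 20.5% to 22.2% in induced and 9.55% to 10.6% in knockout libraries, and Cbx5 takes less of the HP1 set in induced libraries.

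HP1 genes encode the CBX proteins that bind methylated lysine 9 of H3 in heterochromatin. Of these 3, Cbx1 was higher, Cbx5 lower, and Cbx3 did not pass, or 66.7% called against 62.6% of all tested genes. Cbx5 (HP1 alpha) had 466.4, 434.3 and 474.3 CPM in induced libraries, against 616.0, 583.8 and 609.6 CPM in knockout libraries. The groups were clearly apart (log2 fold change -0.40, SE 0.05; edgeR quasi-likelihood test, adjusted p = 1.41e-07), and Cbx5, also on chromosome 15, stood at -0.07 relative to that chromosome's median. Cbx1 (HP1 beta) had 161.6, 171.2 and 174.6 CPM in induced and 150.2, 150.3 and 152.0 CPM in knockout libraries (log2 fold change 0.17; edgeR, adjusted p = 0.00331). Cbx3 (HP1 gamma) had a 95% interval of the log2 fold change of -0.10 to 0.12. Cbx5 thus took 48.1% ± 1.12 of the set's level per kb in induced and 57.0% ± 0.426 in knockout libraries, and Cbx1 took 37.4% ± 1.55 in induced and 30.0% ± 0.608 in knockout libraries (SD, n = 3 each; exact permutation p = 0.1).

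Among methyltransferases of H3 lysine 4, 4 of 8 were higher and 0 lower by edgeR. At an unadjusted p under 0.05, by DESeq2 and by limma-voom, 0 were lower as well. The share called in this class was below the 62.6% of all tested genes (31.0% higher and 31.6% lower). The calls of Kmt2a and Kmt2b depended on single libraries. Kmt2c, which with Kmt2d methylates enhancers, had 59.5, 55.0 and 51.3 CPM in induced libraries, against 40.6, 35.8 and 38.6 CPM in knockout libraries, without overlap (log2 fold change 0.53, SE 0.07; edgeR, adjusted p = 4.12e-07). Kmt2d, at a log2 fold change of -0.13, was not called (adjusted p = 0.128 in edgeR). It lies on chromosome 15 and stood at 0.20 relative to that chromosome's median. Kmt2d was called lower in edgeR without the low-count filter (adjusted p = 0.0258), knockout replicate 1 (0.0153) or induced replicate 2 (0.0347). Setd1a, of the complexes that carry out most promoter methylation, had 79.5, 74.6 and 68.5 CPM in induced and 58.3, 62.1 and 56.4 CPM in knockout libraries (log2 fold change 0.33). The annotated protein-coding gene Gm49388 covers 51.9% of Setd1a's exonic length on the same strand, and reads in the shared part are left out as ambiguous, so its level here omits them. Kmt2b and Kmt2a, of the MLL type, were higher by 0.14 and 0.18 on the log2 scale, and their libraries overlap between the groups. The Kmt2a call was lost without knockout replicate 1 or 3 or induced replicate 1 or 2 (edgeR, adjusted p = 0.0608 to 0.0906), and so was that of Kmt2b (0.0655 to 0.142). Divided by full exonic length, Kmt2b had the highest level of this class, 19.0 CPM per kb in induced and 17.3 in knockout libraries. Setd1a stood at 10.9 CPM per kb in induced and 8.67 in knockout libraries. That length includes the part of Setd1a where reads are not counted, so the rank of Kmt2b over Setd1a is not settled. Setd1b, Kmt2e and Setd7 did not pass, at 0.14, 0.07 and 0.02. The class is a grouping of genes, and lysine 4 activity of each encoded protein was not measured.

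Other SET-domain genes included 2 of the 6 changes beyond 1.5-fold. Of 8 genes, 4 were higher and 1 lower, or 62.5% called against 62.6% of all tested genes. Kmt5a, which adds the first methyl group to lysine 20 of H4 in a cell-cycle-dependent way, had 161.0, 157.1 and 154.6 CPM in induced libraries, against 99.8, 104.5 and 104.5 CPM in knockout libraries. This was a 1.53-fold difference with no overlap (log2 fold change 0.61, SE 0.05; edgeR quasi-likelihood test, adjusted p = 1.1e-10; ENSMUSG00000049327.17, chromosome 5, 124439930 to 124462308, mm10, plus strand). Kmt5b and Kmt5c, which extend that mark, stood at -0.08 and -0.02 on the log2 scale and were not called. Setd6, whose human protein methylates the NF-kB subunit RELA, had 24.0, 23.8 and 22.7 CPM in induced libraries, against 14.9, 15.2 and 16.2 CPM in knockout libraries. Its groups were apart by 1.52-fold (log2 fold change 0.61, SE 0.08; edgeR, adjusted p = 9.13e-07; ENSMUSG00000031671.11, chromosome 8, 95715881 to 95719010, mm10, plus strand). Setd2, which trimethylates lysine 36 of H3, had 161.2, 152.9 and 143.8 CPM in induced and 124.5, 127.0 and 124.4 CPM in knockout libraries (log2 fold change 0.28). Setd5 was higher by 0.15. Setd3, a histidine methyltransferase of actin, was the gene against the direction, with 158.7, 157.5 and 160.0 CPM in induced and 184.0, 188.0 and 185.2 CPM in knockout libraries (log2 fold change -0.23; edgeR, adjusted p = 9.59e-05). Setd4 did not pass, at -0.19.

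Lysine demethylases went both ways, with 2 higher and 5 lower of 16 tested, or 43.8% called against 62.6% of all tested genes. Kdm6b, which removes lysine 27 methylation and so opposes PRC2, had 149.8, 156.3 and 133.7 CPM in induced libraries, against 103.0, 116.3 and 101.8 CPM in knockout libraries. The groups did not overlap (log2 fold change 0.45, SE 0.06; edgeR quasi-likelihood test, adjusted p = 2.66e-06). Its relative Kdm6a, an X-linked gene, had 64.0, 66.4 and 64.4 CPM in induced and 68.6, 68.3 and 71.2 CPM in knockout libraries and did not pass (log2 fold change -0.10). Kdm2b, the partner of PCGF1, had 219.9, 211.3 and 210.0 CPM in induced and 168.6, 167.6 and 176.4 CPM in knockout libraries (log2 fold change 0.32, SE 0.04; edgeR, adjusted p = 1.7e-06). Its closest relative Kdm2a stood at 0.06 and did not pass.

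Kdm3b, a lysine 9 demethylase, had 127.4, 127.9 and 132.1 CPM in induced libraries, against 171.5, 171.3 and 177.0 CPM in knockout libraries. It had the largest fall of the demethylases (log2 fold change -0.42, SE 0.04; edgeR, adjusted p = 3e-08), and the median over its chromosome, 18, was -0.16. Kdm5b, a lysine 4 demethylase, had 170.9, 172.0 and 170.7 CPM in induced and 235.5, 219.7 and 224.8 CPM in knockout libraries (log2 fold change -0.41, SE 0.04; edgeR, adjusted p = 5.86e-08). Its relatives Kdm5a and Kdm5c did not pass, at 0.07 and 0.01. Kdm1a, the flavin-dependent demethylase LSD1 of corepressor complexes, had the highest level of the demethylases per kb. It had 196.5, 200.3 and 219.8 CPM in induced and 239.4, 224.6 and 245.3 CPM in knockout libraries, with little space between the groups (log2 fold change -0.20; edgeR, adjusted p = 0.00133). Kdm4b and Kdm4a, which act on lysines 9 and 36, fell by 0.21 and 0.13 on the log2 scale. Kdm4b lies on chromosome 17 (median log2 fold change -0.13) and stood at -0.08 relative to that median. The Kdm4a call was lost without knockout replicate 1 (edgeR, adjusted p = 0.0618), knockout replicate 3 (0.0506) or induced replicate 1 (0.0531), and Kdm4a did not pass in the authors' deposited table (adjusted p 0.0713). Not called were Kdm3a at -0.12, Kdm4c at -0.05, Kdm7a at 0.11, Kdm8 at -0.16 and Kdm1b at 0.04 on the log2 scale.

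Of 11 histone deacetylase genes, 2 were higher and 1 lower, or 27.3% called against 62.6% of all tested genes. Of the 4 class I genes 0 passed in edgeR, 0 at an unadjusted p under 0.05, and 0 in DESeq2 or limma-voom. Hdac1, the most abundant of the 63 genes per length, had 236.1, 226.1 and 246.8 CPM in induced libraries, against 235.4, 228.7 and 245.6 CPM in knockout libraries. The groups overlap fully, and the 95% interval of the fold was 0.934 to 1.07. Hdac2 had 196.8, 191.8 and 199.5 CPM in induced and 210.3, 201.6 and 207.4 CPM in knockout libraries, apart but close (log2 fold change -0.07; edgeR, adjusted p = 0.145). Hdac1 held 61.0% ± 0.579 of the pair per kb in induced and 59.8% ± 0.701 in knockout libraries (SD, n = 3 each; exact permutation p = 0.2). Hdac3, the subunit of NCOR complexes, and Hdac8 had log2 fold changes of -0.08 and -0.10. Hdac3 was called lower when induced replicate 3 was left out (log2 fold change -0.12; edgeR, adjusted p = 0.0432).

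Hdac4, of the signal-responsive class IIa, was higher at 35.3, 35.4 and 32.7 CPM in induced libraries, against 29.1, 27.9 and 27.7 CPM in knockout libraries (log2 fold change 0.29; edgeR, adjusted p = 0.000812). Hdac5, Hdac7 and Hdac9 did not pass, at -0.09, 0.03 and -0.11. Hdac6, a mainly cytoplasmic tubulin deacetylase on the X chromosome, had 94.3, 90.7 and 93.0 CPM in induced and 70.1, 69.4 and 49.4 CPM in knockout libraries. Knockout replicate 3 was the low one, and the log2 fold change of 0.56 (SE 0.12; edgeR, adjusted p = 0.00589) was 0.41 without it. Hdac11, the single class IV enzyme (ENSMUSG00000034245.10; chromosome 6, 91156665 to 91174692, mm10, plus strand), had 8.34, 8.40 and 7.64 CPM in induced libraries, against 11.9, 12.3 and 12.5 CPM in knockout libraries. It was 1.5-fold lower without overlap (log2 fold change -0.59, SE 0.11; edgeR, adjusted p = 4.54e-05). Hdac10 did not pass, at 0.03. Both Hdac7 and Hdac10 lie on chromosome 15 (median log2 fold change -0.33), and each stood at 0.36 relative to that median.

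Levels per kb spanned a wide range. Hdac1 led with 68.6 CPM per kb in induced and 68.7 in knockout libraries, followed by Cbx5 with 50.9 in induced and 67.0 in knockout libraries. Hdac2 had 43.8 CPM per kb in induced and 46.1 in knockout libraries, Kdm1a 39.7 in induced and 45.7 in knockout libraries. At the low end was Hdac9 with 0.260 CPM per kb in induced and 0.277 in knockout libraries, and next Cbx8 with 0.964 in induced and 0.584 in knockout libraries. The spread of Hdac1 and Cbx5 overlapped in knockout libraries and not in induced ones.

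Other genes of these pathways were read from lists of partners. Of 110 genes, 107 were tested, with 30 higher and 31 lower, or 57.0% called against 62.6% of all genes. PRC2 accessory genes were called in 6 of 9 cases, 3 higher and 3 lower. Phf19, a Polycomb-like protein that binds CpG islands, had 9.69, 7.54 and 8.35 CPM in induced libraries, against 3.37, 4.08 and 4.11 CPM in knockout libraries (log2 fold change 1.16). Epop, an elongin-binding partner of PRC2, had 72.6, 78.2 and 74.0 CPM in induced and 141.6, 142.9 and 149.9 CPM in knockout libraries (log2 fold change -0.95). Neither overlaps between the groups, and the 2 went in opposite directions.

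PRC1 accessory genes were called in 10 of 16 cases, 6 higher and 4 lower, or 62.5% against 62.6% of all tested genes. Phc1, a polyhomeotic protein of canonical PRC1, had 284.6, 265.4 and 263.7 CPM in induced libraries, against 511.6, 548.2 and 527.0 CPM in knockout libraries (log2 fold change -0.96, SE 0.05; edgeR, adjusted p = 5.23e-14). Bcor, the corepressor that joins PCGF1, had 215.0, 198.1 and 207.7 CPM in induced and 143.0, 128.7 and 132.2 CPM in knockout libraries (log2 fold change 0.62, SE 0.05; edgeR, adjusted p = 3.73e-10). Both were far beyond the spread of the libraries.

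In the remaining lists the calls went both ways, except among sirtuins, and most were below 1.5-fold. Over all tested genes 31.0% were higher and 31.6% lower. Partners of the lysine 4 methyltransferases had 3 higher and 3 lower of 11 tested, with the shared subunits Wdr5 at 0.34 and Ash2l at -0.32. HDAC corepressor partners had 6 higher and 5 lower of 22, with Sap30 of the SIN3 complex at 0.62 and Dnttip1 at -0.44. Other methyltransferases had 5 and 5 of 18, with Smyd2 at -0.52 and the lysine 9 enzyme Ehmt2 at 0.29. Acetyltransferases had 2 and 3 of 11, with Kat2b at -0.51 and Hat1 at 0.28. Genes of H2A deubiquitination had 1 and 1 of 6, with Bap1 at 0.20 and Asxl1 at -0.27. Other demethylases had 4 and 3 of 7, with Jmjd1c at 0.44 and Hr at -0.99. Sirtuins, the NAD-dependent deacetylases, had 0 higher and 4 lower of 7 in edgeR (0 higher also at an unadjusted p under 0.05, in DESeq2 and in limma-voom), with Sirt7 at -0.64 and Sirt5 at -0.44.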

How the data were processed

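The members and gene lists were chosen with earlier results of these data known. The authors deposited STAR tables of raw read counts per gene; per the submitters' processing notes, bcl2fastq, STAR, DESeq2 and mm10 were used, their versions not being given in the sources used here. The stranded column that fits the kit was used (96.2% to 96.3% of stranded reads). Rows that name no gene held 15.1% to 17.6% of reads, and multimapped reads are among them. Identifiers were matched to GENCODE M21 (55144 of 55471).

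Here the count test was edgeR 4.0.16 under R 4.3.3 (filterByExpr, TMM, quasi-likelihood, group as the only term, two-sided, Benjamini-Hochberg over all genes, threshold 0.05). SE is the size of the log2 fold change over the root of F; 95% intervals use it with the fit's degrees of freedom. The steps were tested on simulated data. The text names all PRC2, PRC1 and HP1 members, in each other class up to 4 called members with the largest changes, any called member against its class and the one highest per kb, and up to 2 called genes with the largest changes from each list; further members are named beside them, and 1 tested member is counted but not reported here. Alternatives were other scalings, filters, unstranded counts, a replicate term, DESeq2 1.42.0, limma-voom (limma 3.58.1), and leaving out each library.

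The authors' deposited table, per the file headers, gives a mean normalised count (signal), a log2 fold change with its error and Wald score, p-values and a −log10 of the adjusted p. Pairs of libraries gave a chi-square per degree of freedom of 2.16 to 4.81 within groups, above counting noise, and of 71.9 to 82.7 between groups.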

Additional observations from a re-analysis of the deposited data

Results flagged for a closer look

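Kdm1b, a flavin-dependent demethylase gene, had more reads on the strand opposite to it than on its own, in a count column that the comparisons above do not use. These made up 78.7% of its stranded reads in induced libraries (2874 reads) and 78.7% in knockout libraries (2841 reads; 78.74% and 78.65% before rounding). The protein-coding gene Dek lies on the opposite strand and shares 505 exonic bases with Kdm1b. On its own strand Kdm1b had 279, 239 and 258 reads in induced and 268, 225 and 278 reads in knockout libraries. In the authors' deposited table its log2 fold change was 0.05, against 0.04 here. In the others of the 63 tested histone-modifying and Polycomb genes this share reached 2.17% at most. It was not computed for genes outside this set. Whether the opposite-strand reads belong to Dek was not tested.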

How the results depend on the processing

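Of the 32 called genes, 27 (17 higher, 10 lower) kept their call and direction under all 14 alternative fits, and no gene reversed. The other 5, named above, lost the call when a library was left out. Of the genes that did not pass, 5 passed under some alternative (Setd1b as higher, and Kdm3a, Kdm8, Kmt2d and Hdac3 as lower). The counts of higher and lower genes stayed within 17 to 21 and 10 to 14 under every alternative fit, and asking for at least 1.5-fold left 4 and 2. Whether the replicate numbers pair the samples could not be settled with 3 libraries per group. Correlations of deviations were 0.0228, 0.135 and 0.117 for numbers 1 to 3. For libraries with unlike numbers they ran from -0.2557 to 0.1595. With the replicate block 21 were higher and 13 lower, and no call was lost. No scaling moved the median of all genes by 0.1. Depth limits Cbx8 and Hdac9 most, and Kdm4d and Kdm5d could not be tested.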

Other observations

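Further genes of the PRC1 accessory list were named after their values were seen, and nothing is read from their selection. Of the 16 genes of that list 6 were higher and 4 lower, or 62.5% called against 62.6% of all tested genes (31.0% higher and 31.6% lower). Rybp, whose protein stimulates the ligase, averaged 70.3 ± 3.34 CPM in induced and 51.0 ± 3.10 CPM in knockout libraries (SD, n = 3 each; log2 fold change 0.46). Its paralogue Yaf2 averaged 31.5 ± 0.603 CPM in induced and 44.7 ± 4.40 CPM in knockout libraries (log2 fold change -0.50). E2f6 stood at 0.47, Usp7 at 0.37, Mga at 0.19 and Bcorl1 at -0.17 on the log2 scale, all called. Bmi1, Phc2, Phc3 and L3mbtl2 did not pass (0.01, 0.00, -0.02 and -0.08).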
